A study of Equus caballus with 4 samples.

Results

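Cytosolic ribosomal proteins are the protein parts of the ribosomes that translate nuclear genes, and their transcripts were measured here in equine satellite cells (ESC), resident stem cells of skeletal muscle, given β-hydroxy-β-methylbutyrate (HMB, a leucine metabolite) before an oxidative challenge. Genes were chosen by symbol alone: the rpl and rps symbols with a number, plus *rplp0*, *rplp1*, *rplp2* and *rpsa*. The rule took 62 genes, 229 probes and 233 spots, out of 24998 gene names, 43603 probes and 43803 spots that were not controls. Of the 62 genes, 36 belong to the large subunit and 26 to the small subunit. All 62 had a tested probe, that is, a probe well above background in at least 1 channel on each array, as had 14104 gene names in all. In RefSeq's horse annotation, 60 of the 62 symbols were found as current symbols.

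Each of the 4 arrays carried RNA of HMB-treated cells labelled with Cy5 and RNA of control (CTRL) cells labelled with Cy3. HMB was given at 50 µM for 24 h, and both sides received 3 mM H2O2 for the last 1 h, so the control also carried the oxidative challenge. The cells came from the semitendinosus muscle of healthy stallions aged 6 months and were on day 3 of differentiation. The culture with the best viability and fusion was taken on, the labels name the control as replicate 1 on every array, and nothing ties each array to its own horse or culture. The p-values therefore measure the spread between these 4 arrays, which may be technical. All 4 arrays lay on 1 slide and no dyes were swapped, so an effect of HMB and an effect of the dye cannot be told apart.

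Ribosomal protein genes are transcribed at high levels in most cells, and each protein is needed in about equal amounts for a complete ribosome. Their mRNAs carry a pyrimidine tract at the start, through which growth signals set how well they are translated, so mRNA level and protein output can part. Several of them serve as reference genes in PCR. A few members have paralogs with restricted expression: *rpl3l* replaces *rpl3* in mature skeletal and heart muscle, and *rpl10l* is a retrogene copy of *rpl10* best known from the testis.

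The paralog pairs and *rps9* turn on what their probes can separate, so the sequences of 1 probe of each are given here from the scanner files. All are 60 bases long, positions are of the EquCab1 build, and capitals mark bases that differ in the best ungapped overlap of the pair. The *rpl10l* probe (chr1:175001297-175001356, minus strand) and the *rpl10* probe (chrUn:276241153-276241212, plus strand) differed at 8 of 58 overlapping bases.
rpl10l: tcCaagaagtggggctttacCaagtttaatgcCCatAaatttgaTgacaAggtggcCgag
rpl10: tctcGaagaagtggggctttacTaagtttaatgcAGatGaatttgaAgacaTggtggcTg
The *rpl3l* probe (chrUn:73754409-73754764, minus strand) and a *rpl3* probe (chr28:36024041-36024360, minus strand) differed at 25 of 47 overlapping bases, and each mapped to a span longer than the probe itself.
rpl3l: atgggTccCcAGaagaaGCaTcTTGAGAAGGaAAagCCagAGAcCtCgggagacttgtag
rpl3: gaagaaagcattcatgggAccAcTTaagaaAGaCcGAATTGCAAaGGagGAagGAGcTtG
The name *rps9* covers 1 mapped probe (chr10:18037489-18037548, plus strand) and 5 unmapped ones, and the mapped probe differed from the unmapped one shown with it at 8 of 60 bases.
rps9, mapped: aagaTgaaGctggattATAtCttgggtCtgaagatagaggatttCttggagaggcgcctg
rps9, unmapped: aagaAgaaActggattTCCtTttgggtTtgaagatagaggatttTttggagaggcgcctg

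Few ribosomal protein transcripts differed between the HMB-treated and control cells on the deposited scale, a count that rests on the dye normalization. Of the 62 genes, 1 was called higher in the HMB-treated group (*rpl10l*) and 0 were called lower, where a call needed an adjusted p of 0.05 or less by limma with Benjamini-Hochberg adjustment and a fold change (FC) of 1.3 or more. Over all 14104 tested genes the calls were 12.4% higher and 16.2% lower. Other background and dye corrections of the same signals called from 4 to 57 members higher (6.45% to 91.9%), as set out with the dye normalization. These corrections called 12.8% to 30.6% of all tested genes in either direction. Scaling to the spike-in RNAs called 42 members lower (67.7%), beside 73.6% of all tested genes called in either direction. At an unadjusted p under 0.05, and at any FC, 12 members were higher (19.4%) and 4 lower (6.45%), against 21.5% and 32.6% of all tested genes. At the adjusted threshold and any FC, 6 members were higher and 1 lower, against 45.4% of all tested genes in either direction. The 95% interval of the log2 ratio lay inside a 1.3-fold change for 56 of the 62 genes (90.3%), and for 38.8% of all tested genes.

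The median log2 ratio over the 62 genes was 0.069, with medians of 0.094, 0.031, 0.033 and 0.13 on replicates 1 to 4. It stayed above 0 under all settings tried except scaling to the spike-in RNAs, which put it at -0.42 and the median of all tested genes at -0.55; with median centring and no curve it was 0.68. The median of all tested genes on the deposited scale was -0.058. In 46 genes the mean ratio was above 0 and in 16 below, while 42.9% of all tested genes were above. Ratios had 1 sign on all 4 arrays in 37 members, 31 of them positive and 6 negative; that share, 59.7%, was near the 60.5% of all tested genes.

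**Figure D1:**
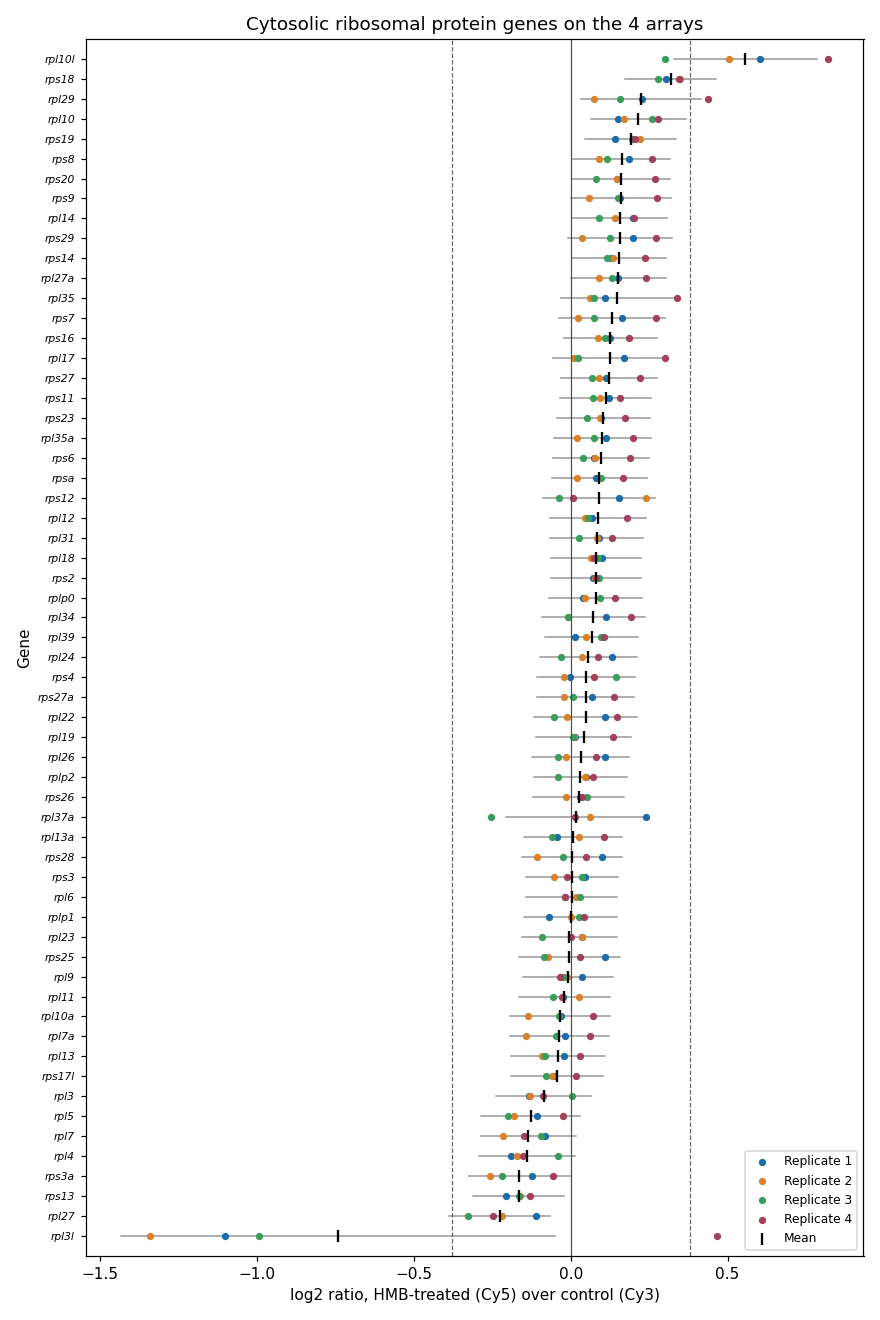
Log2 ratio of HMB-treated (Cy5) over control (Cy3) for 60 of the 62 ribosomal protein genes, with 1 coloured point per array, the mean as a black tick, the 95% interval of the limma fit as a grey line and the 1.3-fold bounds dashed. Nearly all intervals lie between the dashed lines; *rpl10l* at the top and *rpl3l* at the bottom stand outside the rest.

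Among proteins of the large subunit, the median was 0.037 over 36 genes, and among those of the small subunit 0.0998 over 26 genes. The small subunit median was the higher on each array: 0.11 against 0.044, 0.068 against 0.022, 0.071 against -0.0018 and 0.17 against 0.097. Both medians were negative under spike-in scaling, at -0.45 and -0.39, with the small subunit again the higher. Within the arrays the gap was 0.068, 0.046, 0.073 and 0.073 (mean 0.065 ± 0.013 SD, n = 4), and it was not tested.

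The stalk proteins recruit translation factors to the large subunit, and their transcripts kept close to 0 on the deposited scale. For *rplp0*, which anchors the stalk, the ratios were 0.039, 0.044, 0.095 and 0.14 (mean 0.080 ± 0.048 SD, n = 4). The mean was 0.00023 ± 0.049 for *rplp1* and 0.031 ± 0.049 for *rplp2*, the acidic proteins that the anchor holds. That of *rplp1* averages 2 probes of opposite sign, -0.076 for the one mapped to chr11 and 0.077 for the one mapped to chr1. No member of the stalk passed the test (limma adjusted p of 0.32, 0.998 and 0.70).

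*rpl5* and *rpl11* bind the small ribosomal RNA of the large subunit and, when free of ribosomes, restrain the ubiquitin ligase of p53. *rpl5* gave -0.11, -0.18, -0.20 and -0.025, all below 0 (mean -0.13 ± 0.079, n = 4, limma adjusted p = 0.15). *rpl11* gave -0.023, 0.027, -0.055 and -0.028 (mean -0.020 ± 0.034, limma adjusted p = 0.81). On the deposited scale neither passed the test, and both intervals, which cover only the spread between arrays, lay inside a 1.3-fold change. Median centring with no curve called both higher, and spike-in scaling called both lower.

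*rpl27*, a large subunit protein, was the lowest of the bright members. Its 1 probe read -0.11, -0.22, -0.33 and -0.25, below 0 on every array (mean -0.23 ± 0.090, FC 1.17 in favour of the control, limma adjusted p = 0.033). It passed the p threshold without reaching the FC threshold, and its 95% interval ran from -0.39 to -0.065. *rpl4*, which lines the exit tunnel, gave -0.19, -0.17, -0.040 and -0.15 (mean -0.14 ± 0.067, limma adjusted p = 0.12), and *rpl39*, a small protein of the same tunnel, had a mean of 0.067 ± 0.044.

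At the upper end of the large subunit, *rpl29* read 0.23, 0.074, 0.16 and 0.44 (mean 0.22 ± 0.16, limma adjusted p = 0.060), with replicate 4 highest. *rpl10*, which is added late in subunit maturation and sits near the tRNA sites, read 0.15, 0.17, 0.26 and 0.28 (mean 0.21 ± 0.063, FC 1.16, limma adjusted p = 0.032). All 3 of its probes lay between 0.19 and 0.25.

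*rps18*, which lies in the head of the small subunit, had the highest ratio of any bright member, with a small spread. It read 0.30, 0.35, 0.28 and 0.35, above 0 on every array (mean 0.32 ± 0.035, FC 1.25, limma adjusted p = 0.0069). Its 5 probes ranged from 0.25 to 0.40, and the 95% interval of the gene, 0.17 to 0.46, crossed the 1.3-fold bound. Because *rps18* missed that bound it was not called.

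A further small subunit transcript was above 0 on all arrays with little spread. *rps19*, whose human counterpart is mutated in Diamond-Blackfan anaemia, read 0.14, 0.22, 0.20 and 0.21 (mean 0.19 ± 0.034, limma adjusted p = 0.041). It passed the p threshold below the FC threshold.

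*rps6*, the substrate of the S6 kinases in growth signalling, had a mean of 0.096 ± 0.065 (limma adjusted p = 0.26). *rps3*, which also takes part in DNA repair, had 0.0042 ± 0.046, and *rps28* had 0.0044 ± 0.089. *rps27a*, made as a fusion with ubiquitin, had 0.048 ± 0.072, *rps27* had 0.12 ± 0.067, and *rpsa*, known also as a laminin receptor, had 0.091 ± 0.060. On the deposited scale none of these 6 passed the test, and all 6 intervals lay inside a 1.3-fold change. Median centring with no curve called all 6 higher, and spike-in scaling called all but *rps27* lower.

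The lowest transcripts of the small subunit were *rps13* and *rps3a*. *rps13* read -0.21, -0.16, -0.16 and -0.13 (mean -0.17 ± 0.031, limma adjusted p = 0.064). Its 4 probes lay far apart, with means from -0.27 to -0.034. *rps3a* read -0.12, -0.26, -0.22 and -0.056 (mean -0.16 ± 0.091, limma adjusted p = 0.089). Both were below 0 on every array, and neither passed the test.

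The paralogs of restricted expression stood farthest from the rest, and both were dim. In the intensity deciles of *rpl10l* and *rpl3l*, 29.3% and 28.8% of all tested genes were called. The interquartile ranges of the log2 ratio in these deciles were 0.44 and 0.45, beside 0.38 in the brightest decile. *rpl10l* read 0.60, 0.50, 0.30 and 0.82 (mean 0.56 ± 0.22, FC 1.47, limma adjusted p = 0.0046), above 0 on all arrays. Its 5 probes, which tile chr1:175001293-175001356 and so share most of their sequence, had means of 0.51 to 0.59, and all 5 were among the 6 member probes called higher. The sixth call was a *rps18* probe, and 0 member probes were called lower, beside 12.1% higher and 16.3% lower of all tested probes. The *rpl10l* probes were dim, at a mean log2 signal of 6.57.

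The ratio of *rpl10l* was above that of *rpl10* by 0.45, 0.33, 0.043 and 0.54 on replicates 1 to 4 (mean difference 0.34 ± 0.22). The signals before dye normalization gave the other order, 0.35 for *rpl10l* and 0.70 for *rpl10*. The *rpl10* probes had log2 signals of 16.0 to 17.3 and the one printed above matches the *rpl10l* probe at 50 of 58 bases; how much *rpl10* transcript bound the *rpl10l* probes was not tested.

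*rpl3l* read -1.10, -1.34, -0.99 and 0.46 (mean -0.74 ± 0.82, limma adjusted p = 0.076), so replicates 1 to 3 were far below 0 and replicate 4 was above it. Without replicate 4 the mean was -1.14 with a limma adjusted p of 0.00081, and the gene was called lower. The same split was present before dye normalization, at -1.60, -1.40, -0.996 and 0.36. It rests on 1 dim probe, with a mean log2 signal of 7.05. *rpl3*, with 5 probes, read -0.13, -0.13, 0.0056 and -0.089 (mean -0.086 ± 0.064, limma adjusted p = 0.30).

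Members in use as reference genes were compared against the same scale. *rpl13a* read -0.042, 0.025, -0.059 and 0.11, on both sides of 0 (mean 0.0075 ± 0.076, 95% interval -0.15 to 0.16). On replicate 2, 1 of its 5 probes read 0.40 and the others -0.088 to -0.036, so the sign there rests on that probe. *rps9* read 0.16, 0.058, 0.15 and 0.27 (mean 0.16 ± 0.088, limma adjusted p = 0.093); the mapped probe gave 0.080 and the 5 unmapped probes 0.16 to 0.19. With *rplp0*, *rpl4* and *rps18* above, the mean log2 ratios of these 5 genes ran from -0.14 to 0.32. Under spike-in scaling *rpl13a*, *rplp0* and *rpl4* were called lower, at -0.48, -0.41 and -0.63, as were 9727 of all 14104 genes, whose median was then -0.55. Median centring with no curve went the other way. It called *rpl13a*, *rplp0*, *rpl4* and *rps18* higher, as it did 57 of the 62 members and 2156 of all 14100 genes.

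The arrays ordered the bright members alike. Across the 59 genes with a mean log2 signal above 12, Pearson's r between 2 arrays was 0.709 to 0.845; this is across genes, which are not independent and share the dye and the slide. Replicate 4 gave the highest ratio in 40 of the 62 genes, and replicates 2 and 3 gave the lowest in 25 each. The SD between arrays had a median of 0.065 over the members, 0.16 over all tested genes and 0.10 over the 191 other genes with a mean log2 signal above 15. The SD was under 0.1 in 53 members, and the median half-width of the 95% interval was 0.15.

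How far the probes of a gene lay apart varied with their placement. Of the 42 genes with over 1 probe, 25 had all probes starting within 60 bases of each other on the genome. Such probes overlap and are no independent readings. The distance between the highest and lowest probe mean of these genes had a median of 0.087. In the other 17 genes that median was 0.15, beside an interquartile range of 0.13 between the mean ratios of the members. Some probes of these 17 genes overlap too, such as those of *rpl9*, which start at positions 560 to 600 of the transcript. The 2 medians therefore do not set overlapping against independent probes. The distance was greatest for *rplp0*, from -0.029 to 0.25. In *rps26* the 5 probes at chrUn:195272654-195272717 read 0.040 to 0.16 and the 5 at chrUn:195273129-195273192 read -0.064 to -0.020. *rps12* was next to *rplp0*, from -0.024 to 0.24. Of its 9 probes, 3 were dim (log2 signal 5.18 to 5.51) and lay at chr10:73738203-73738331, inside the 1139 bases over which another of its probes, at chr10:73737925-73739063, was mapped in parts. The dim probes read anywhere from -0.66 to 0.78 on single arrays, while the 5 brightest kept to 0.042 to 0.30. The *rps12* mean, 0.091 ± 0.13, includes all 9.

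The 2 probes named *rpl37a* were also dim, with log2 signals of 6.22 and 9.18, and the files describe them as an uncharacterized protein. They read 0.24, 0.062, -0.26 and 0.014 on average (mean 0.015 ± 0.21). A bright probe with another name but described as ribosomal protein L37a read 0.38. Whether the *rpl37a* probes measure the ribosomal protein was not tested.

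**Figure D2:**
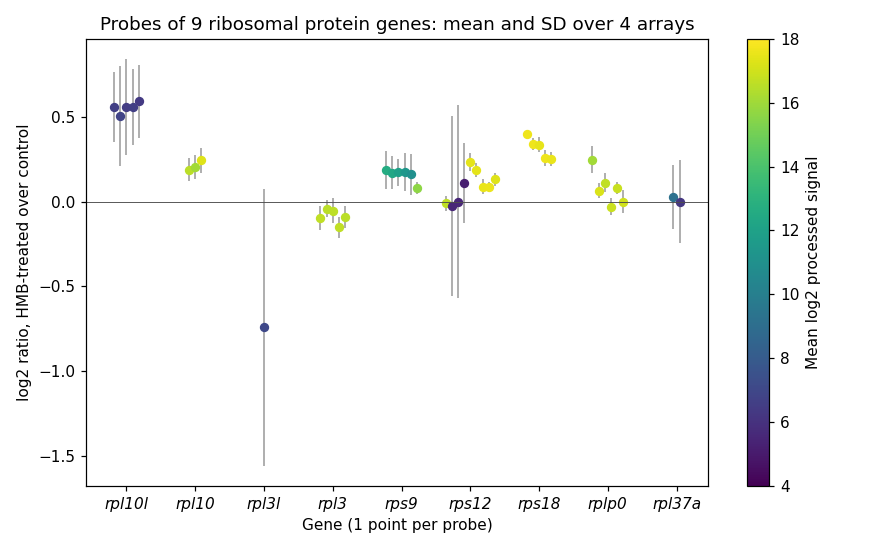
Mean log2 ratio of HMB-treated over control for each probe of 9 ribosomal protein genes, 1 point per probe with its SD over 4 arrays as a bar, coloured by mean log2 signal. The 5 dim *rpl10l* probes sit together at 0.51 to 0.59, the single *rpl3l* probe has the widest bar, and the 3 dim *rps12* probes have wider bars than its bright ones.

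Beyond the chosen names, 23 gene names were described in the files as ribosomal proteins, among them L8, L21, L30, L32, L38, S10 and S24. Of these, 21 were tested, with a median log2 ratio of 0.15 and a range from -0.055 to 0.50. The probe described as L32, a further reference gene, read -0.055, and the 5 described as S10 read 0.22 to 0.35. One name, described as L12, was called higher (0.50 ± 0.31, limma adjusted p = 0.016) and 0 were called lower. Its 3 probes had log2 signals of 5.66 to 9.82, while *rpl12* itself had 17.2 and a ratio of 0.087.

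Most members lay at the bright end of the array. A mean log2 signal above 12 was found for 59 of 62 genes, and all of these fell in the brightest decile of tested genes; brightness also depends on the probe and is no transcript level. Ratio and signal were barely related across those 59 genes (Pearson's r -0.167, Spearman's rho -0.0763, across genes). In that decile 23.1% of genes were called. Among 191 other genes with a mean log2 signal above 15, 9 were called higher and 31 lower, and their median ratio was -0.020; of the 53 members above 15, none was called.

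**Figure D3:**
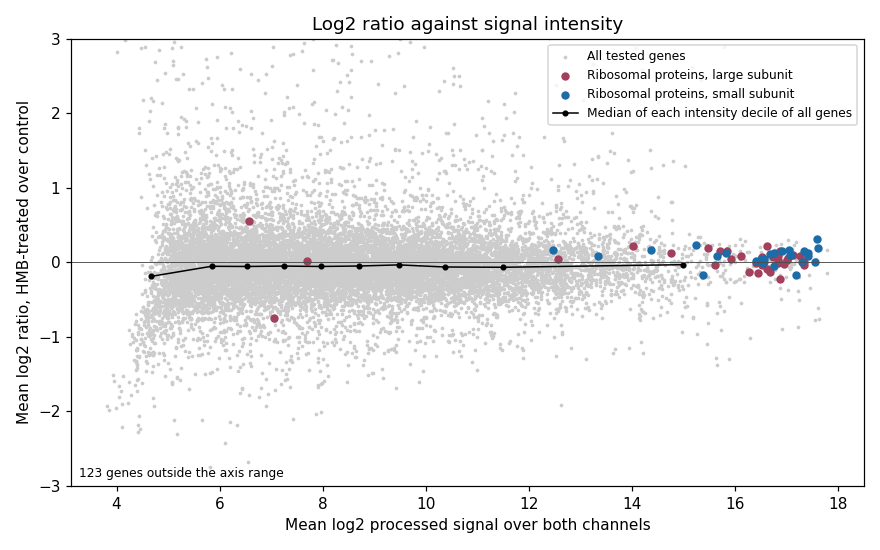
Mean log2 ratio of HMB-treated over control against the mean log2 processed signal of both channels, for all tested genes in grey and ribosomal protein genes in colour by subunit, with the median of each intensity decile of all genes as a black line. The ribosomal proteins form a flat band at the right edge, apart from *rpl10l*, *rpl3l* and *rpl37a* at signals of 6.57 to 7.70; 123 genes lie outside the vertical range.

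The dye normalization sets the level that counts as 0 at each brightness, and most members lie where few other genes do. The scanner software fitted its lowess curve to spots it judged unchanged in rank, and that set held 92.6% to 95.6% of the member probes on each array, 95% to 97.1% of the other probes with a mean log2 signal above 15, and 27.8% to 29.2% of all tested probes. Member probes made up 2.66% to 2.75% of that set, and 28.6% to 29.0% of its probes above a signal of 15. Before that step, on background-subtracted signals, the member medians were 0.22, 0.61, 0.47 and 0.71, while the medians of all tested genes were -0.49, 0.021, -0.052 and -0.28. The 191 other bright genes had 0.072, 0.50, 0.40 and 0.40. The members were therefore above both other groups on each array before the step, and other bright genes shared most of their distance from the array median. After the step the members were at 0.031 to 0.13.

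**Figure D4:**
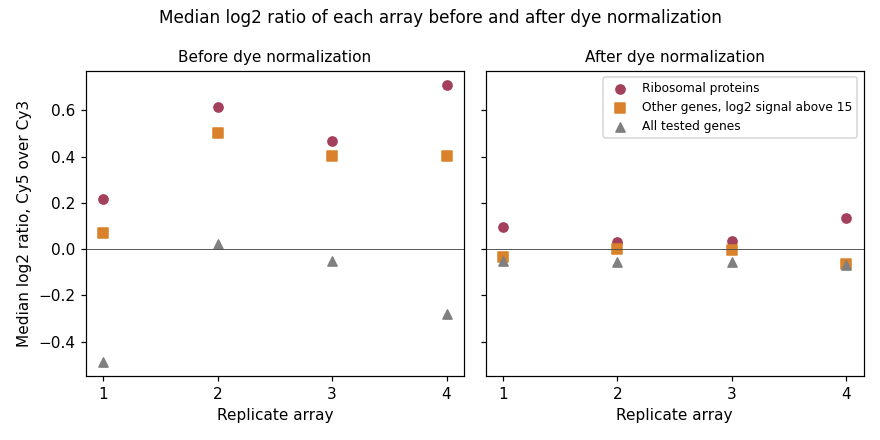
Median log2 ratio (Cy5 over Cy3) on each of the 4 arrays for ribosomal proteins, for 191 other genes with a mean log2 signal above 15 and for all tested genes, before and after dye normalization. The members move from 0.22 to 0.71 down to 0.031 to 0.13, and the other bright genes move with them.

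How far the members stood above the other genes hence varied with the curve. A loess fit on background-subtracted signals of all probes gave a member median of 0.22 and 4 members called higher, and the same fit with the member probes left out gave 0.31 and 16 called higher. In these fits 27.7% and 28.0% of all genes, and 24.1% and 35.1% of the 191 other bright genes, were called in either direction, beside 6.45% and 25.8% of the members. The other bright genes had medians of 0.11 and 0.19 in these fits, which were chosen after seeing the data. Centring each array on its median with no curve gave 0.68 for the members, with 57 called higher, and 0.55 for the other bright genes; 91.9% of the members, 69.1% of those bright genes and 30.6% of all genes were then called. *rps18* was called in each of these fits, at 0.57, 0.68 and 1.21, and *rps19* at 0.44, 0.56 and 1.07. Which part of these distances belongs to the dye and which to HMB cannot be told apart without swapped dyes.

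**Figure D5:**
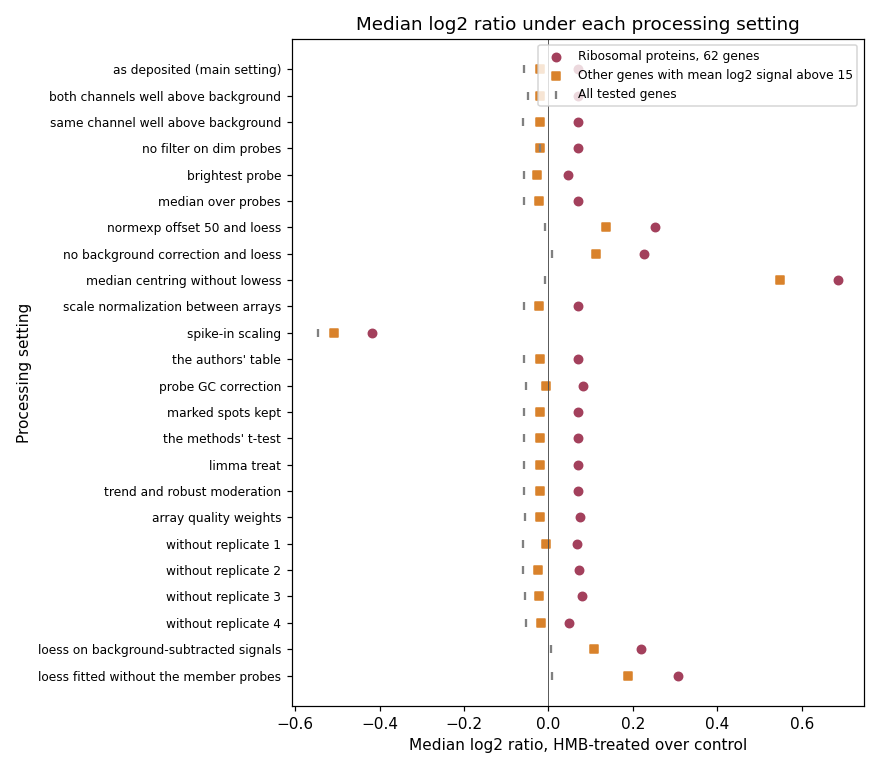
Median log2 ratio under each processing setting for the 62 ribosomal proteins, the 191 other genes with a mean log2 signal above 15 and all tested genes. The ribosomal proteins lie to the right of the other bright genes and of all genes at each setting; the position of 0 moves with the normalization, and the member median is negative only with spike-in scaling (-0.42).

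The rest of the ribosome's pathway was read from lists of other genes. Of 70 tested ribosome biogenesis genes, 8 were called lower and 0 higher, with a median of -0.16. The 8 included *polr1b*, a subunit of RNA polymerase I (-0.50 ± 0.082, limma adjusted p = 0.0017), *heatr1*, needed for transcription and processing of ribosomal RNA (-0.44 ± 0.053, limma adjusted p = 0.0022), and *ltv1*, an assembly factor of the small subunit (-0.41 ± 0.13, limma adjusted p = 0.0062). Their share, 11.4%, was below the 28.6% of all tested genes called in either direction.

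Of 65 mitochondrial ribosomal proteins, which serve a separate ribosome, 1 was called higher and 5 lower (median -0.10). Among 47 genes with translation factor symbols (eif or eef and a number), which include kinases of these factors, 1 was called higher and 5 lower (median -0.097). The lower ones included *eif1*, which guards start codon choice (-0.59 ± 0.043). The higher one was *eif2ak2*, the RNA-activated kinase that blocks initiation (2.72 ± 0.23). Of 18 other mRNAs known for the same pyrimidine tract, 1 was called lower, *eif4a2*, and the median was -0.075. *eif4a2* is also among the genes with translation factor symbols, so these lists overlap. Of 14 tested regulators of growth and of such mRNAs, 2 were called higher, *myc* (0.90 ± 0.19, limma adjusted p = 0.00052) and its partner *max* (0.82 ± 0.10, limma adjusted p = 0.00030).

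Among 10 tested genes of ribosome rescue and surveillance, *ascc3* was called higher and *abce1* and *nemf* lower (30% called). None of 5 tested paralogs outside the symbol rule was called. With 11.4%, 9.23%, 12.8% and 5.56% of genes called, the biogenesis genes, mitochondrial ribosomal proteins, translation factors and other pyrimidine tract mRNAs all lay below the 28.6% of all tested genes, as did the growth regulators with 14.3%; the rescue and surveillance genes did not.

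Markers of cell types moved on the same arrays. All 8 muscle markers on the array, of 10 listed, were above background, as the label of the cells asks. The 7 fibroblast markers on the array were all above it too, so this filter does not set muscle cells apart. Of the 8 muscle markers, 6 were called lower (median -1.08, from -1.29 to -0.80 by array, with *myh3* at -1.38 and *acta1* at -1.10). The muscle markers *myog* (0.032 ± 0.23) and *myod1* (0.10 ± 0.19) were not called and lay slightly above 0. Of 7 tested fibroblast markers 5 were called higher (median 0.74, from 0.53 to 0.89 by array, with *dcn* at 0.89). The fibroblast markers *col3a1* (0.32 ± 0.29) and *col1a2* (-0.18 ± 0.40) were not called. Of 3 tested leukocyte markers 2 were called higher, while none of 3 adipocyte and 5 endothelial markers on the array passed the background filter. In bulk RNA, fewer cells of a type and less RNA per cell cannot be told apart, and the part of these markers in the ratios of *rpl3l* and the other members was not tested.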

How the data were processed

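RNA of HMB-treated (Cy5) and control (Cy3) cells was hybridised to 4 two-colour horse arrays. Per the file headers, the authors ran Feature Extraction 10.10.1.1, subtracted background and fitted linear and lowess dye normalization (smoothing factor 0.25) within each array; the study's methods name another version of the software. The deposited values used were the log10 ratios of red over green, the intensities of each channel, and other values, the flags, of each spot, all per the file headers. The deposited table of log10 ratios differed from the scanner files by at most 3.96e-05.

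Ratios were converted to log2 and control spots and outlier-flagged spots left out. Spots were averaged per probe, then probes per gene symbol, over probes well above background in red or green on each array with a ratio on at least 3 arrays. limma 3.58.1 (R 4.3.3) tested each gene's mean of 4 ratios against 0 over all 14104 genes, with Benjamini-Hochberg adjustment; a call needed adjusted p of 0.05 or less and FC of 1.3 or more. Errors are SD over arrays, and intervals are 95% intervals of the limma fit. The number of arrays limits the precision. No spot was saturated. The test was run on simulated data for 14104 genes with 200 changed genes. Calls were made for 86.8% of those changed 1.5-fold and 100% of those changed 2-fold or 4-fold, with 14 calls among the unchanged. In the data themselves a far larger share of genes, 28.6%, was called, so these rates may not carry over.

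Named genes were those called, the 5 highest and 5 lowest, the paralog pairs, the stalk and *rpsa*, 5 reference genes, 6 members with known further roles, the 3 with the largest SD, the 3 with the largest probe range, and the 3 brightest and 3 dimmest. A few genes that the rule or the calls would name are not reported here. The genes with 1 array apart and the genes named from other lists were chosen after their values were seen. The members and lists were chosen with earlier results of these data known. Other settings covered probe filters, probe summaries, background and dye normalization, spike-in scaling, the test, and leaving out each array; 2 loess fits were added after seeing the data.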

Additional observations from a re-analysis of the deposited data

Results flagged for a closer look

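In 3 of the 62 genes, 1 array stood apart from the other 3 by more than Dixon's limit for 4 values (0.829 of the range). Chance flags about 1 in 20 such groups, so this count is near what chance alone gives. In all 3 it was replicate 4, which gave the highest ratio in 40 of the 62 genes. *rpl19*, a large subunit protein, read 0.13 on replicate 4 and 0.0083 to 0.012 on the others, a gap of 0.968 of the range. *rpl12*, which lies at the base of the stalk, read 0.18 against 0.045 to 0.067 (0.835 of the range). *rpl35*, beside the tunnel exit, read 0.34 against 0.062 to 0.11 (0.83 of the range).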

How the results depend on the processing

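All 28 named genes kept their side of the threshold under the 3 other probe filters, both other probe summaries, scale normalization, the authors' table, GC correction, marked spots kept, the methods' t-test, trend and robust moderation and array quality weights. *rpl10l* was called in 19 of 23 alternatives (adjusted p 0.00252 to 0.462). It lost its call with normexp and loess (log2 ratio 0.25), with no background correction and loess (log2 ratio 0.34) and with spike-in scaling (log2 ratio 0.069). It also lost its call with limma's treat (adjusted p = 0.313). Members called higher numbered 6 probes in the probe-level fit, 9 with normexp and loess, 5 with no background correction and loess, 57 with median centring, 4 and 16 in the added loess fits with and without the member probes, and 0 with spike-in scaling and with treat; spike-in scaling called 42 lower. The shares of members called were 2.62%, 14.5%, 8.06%, 91.9%, 6.45%, 25.8%, 67.7% (spike-in) and 0% (treat), beside 28.3%, 12.8%, 17.0%, 30.6%, 27.7%, 28.0%, 73.6% and 10.8% of all features tested. Leaving out 1 array in turn gave 1 member called higher each time, 0 to 1 called lower (*rpl3l*, without replicate 4), and member medians of 0.049 to 0.080.

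In the order normexp and loess, no background correction and loess, median centring, spike-in scaling, and loess with and without the member probes, the member median was 0.25, 0.23, 0.68, -0.42, 0.22 and 0.31, that of the small subunit 0.29, 0.26, 0.76, -0.39, 0.26 and 0.33, and that of the large subunit 0.23, 0.19, 0.64, -0.45, 0.19 and 0.28. All tested genes called higher numbered 3000 probes in the probe-level fit, 1027 with normexp, 650 with spike-in scaling, 1140 with the methods' t-test and 819 with treat; called lower were 4048 probes, 772 with normexp, 906 with no background correction, 9727 with spike-in scaling and 705 with treat. Median centring called 2156 higher and 2154 lower, and the added loess fits 2111 and 1800 with the member probes and 2150 and 1792 without. Median centring turned *rpl11* to 0.71, *rpl27* to 0.48, *rpl3* to 0.58, *rpl4* to 0.50, *rpl5* to 0.56 and *rps13* to 0.62. Spike-in scaling turned *rpl13a* to -0.48, *rpl37a* to -0.47, *rpl39* to -0.42, *rplp0* to -0.41, *rplp1* to -0.49, *rplp2* to -0.46, *rps12* to -0.40, *rps27a* to -0.44, *rps28* to -0.48, *rps3* to -0.48, *rps6* to -0.39 and *rpsa* to -0.40. These settings move the level that counts as 0; other causes were not tested. The test of each array's ratio against 0 is itself paired within the array, so no further block was fitted. With 1 slide, 4 arrays and no swapped dyes, the precision of single dim probes is low.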
